A study of Mus musculus with 10 samples.

Results

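The S100 genes described here are 10 members of the S100 calcium-binding protein family, S100b, S100a1, S100a4, S100a6, S100a8, S100a9, S100a10, S100a11, S100a13 and S100a16, out of 29890 genes listed in a bulk RNA sequencing table of mouse tumors. The members were chosen by symbol with earlier results of these data known, S100b having already been called between the groups on these TPM values, so the differences between the groups below are descriptions and no test of a member is used as support. Tumors came from B2905-M4, a mouse melanoma line, injected under the skin of female C57BL/6J mice aged 7 to 8 weeks. In 5 tumors the cells overexpressed Adamts7, a protease that cells secrete and that cleaves matrix proteins, and in 5 they carried a vector control. No tumor received immunotherapy. Of the Adamts7 tumors 2 were harvested on day 35 and 3 on day 45, and of the vector tumors 3 on day 45 and 2 on day 50, with no label that ties a day to a tumor. A single line was used, the promoter behind the overexpression and the clonality of the cells are not given in the sources used here, and the host mice had their own immune system and stroma, whose RNA is part of each library.

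S100 proteins are small dimeric proteins with a pair of EF hands, the helix-loop-helix motifs that bind calcium. In most of them, though not in all, calcium opens a surface through which they bind targets such as annexins, myosin heavy chain and p53. Some S100 proteins are secreted and act on receptors such as RAGE and TLR4. In melanoma and in other derivatives of the neural crest S100B is a classic diagnostic marker, S100A4, known as metastasin, is abundant in fibroblasts and myeloid cells, and S100A8 and S100A9 form calprotectin of neutrophils and monocytes.

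Levels are in TPM, a transcript abundance that is scaled per length and within a library, so that genes can be set side by side while sequencing depth is lost and unknown here. A tumor had 21515 to 23859 genes above 0 TPM. Adamts7 reached 74.8 to 96.0 TPM in 4 Adamts7 tumors but only 18.2 TPM where the label says Adamts7 5, against 6.49 to 28.3 TPM in vector tumors, so that this tumor lay below vector tumors 3 and 5. Whether labels were exchanged was not tested, and each mean below is that of the groups as labelled. Those vector tumors stand apart from the rest of their group: the summed level of 12 melanocyte genes was 325 TPM in vector tumor 3 and 2061 TPM in vector tumor 5, against 8792 to 17638 TPM in the other vector tumors, and that of 12 monocyte and macrophage genes was 5806 and 6268 TPM against 965 to 1454 TPM. Differences are therefore also given without these 3 tumors. In bulk tissue, fewer cells of a type and less RNA per cell cannot be told apart.

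The family held both very abundant and barely detected transcripts. Of the 10 members 8 were at 51.1 TPM or more in every tumor, while S100a8 and S100a9 were at most 3.44 and 3.13 TPM. In the Adamts7 tumors the order by mean level was S100a11 at 1026 ± 238 TPM, S100a4 at 727 ± 300 TPM, S100a1 at 345 ± 84.5 TPM, S100a6 at 299.8 ± 125 TPM, S100a10 at 274 ± 44.7 TPM, S100a16 at 254 ± 95.7 TPM, S100b at 151 ± 28.9 TPM and S100a13 at 70.0 ± 15.6 TPM (SD, n = 5 each). In the vector tumors it was S100a4 at 1567 ± 1224 TPM, S100a11 at 1141 ± 279 TPM, S100a10 at 517 ± 210.0 TPM, S100a6 at 427 ± 232 TPM, S100a16 at 223 ± 115 TPM, S100a1 at 184 ± 53.2 TPM, S100a13 at 86.2 ± 21.5 TPM and S100b at 72.0 ± 9.20 TPM (SD, n = 5 each). Neighbours closer than the larger of their SDs were S100a11 and S100a4, S100a1 and S100a6, S100a6 and S100a10, and S100a10 and S100a16 in the Adamts7 tumors. In the vector tumors they were S100a4 and S100a11, S100a10 and S100a6, S100a6 and S100a16, S100a16 and S100a1, and S100a13 and S100b. S100a11 ranked between 95 and 177 among all listed genes in each tumor. Together the 10 members took 0.254% to 0.370% of the TPM of an Adamts7 tumor and 0.231% to 0.668% of that of a vector tumor, the highest shares being 0.558% in vector tumor 3 and 0.668% in vector tumor 5. S100a4 made up 45.2% and 48.2% of the family's TPM in those tumors, 9.50% in the tumor labelled Adamts7 5, and 20.1% to 29.8% in the other 7.

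**Figure D1:**
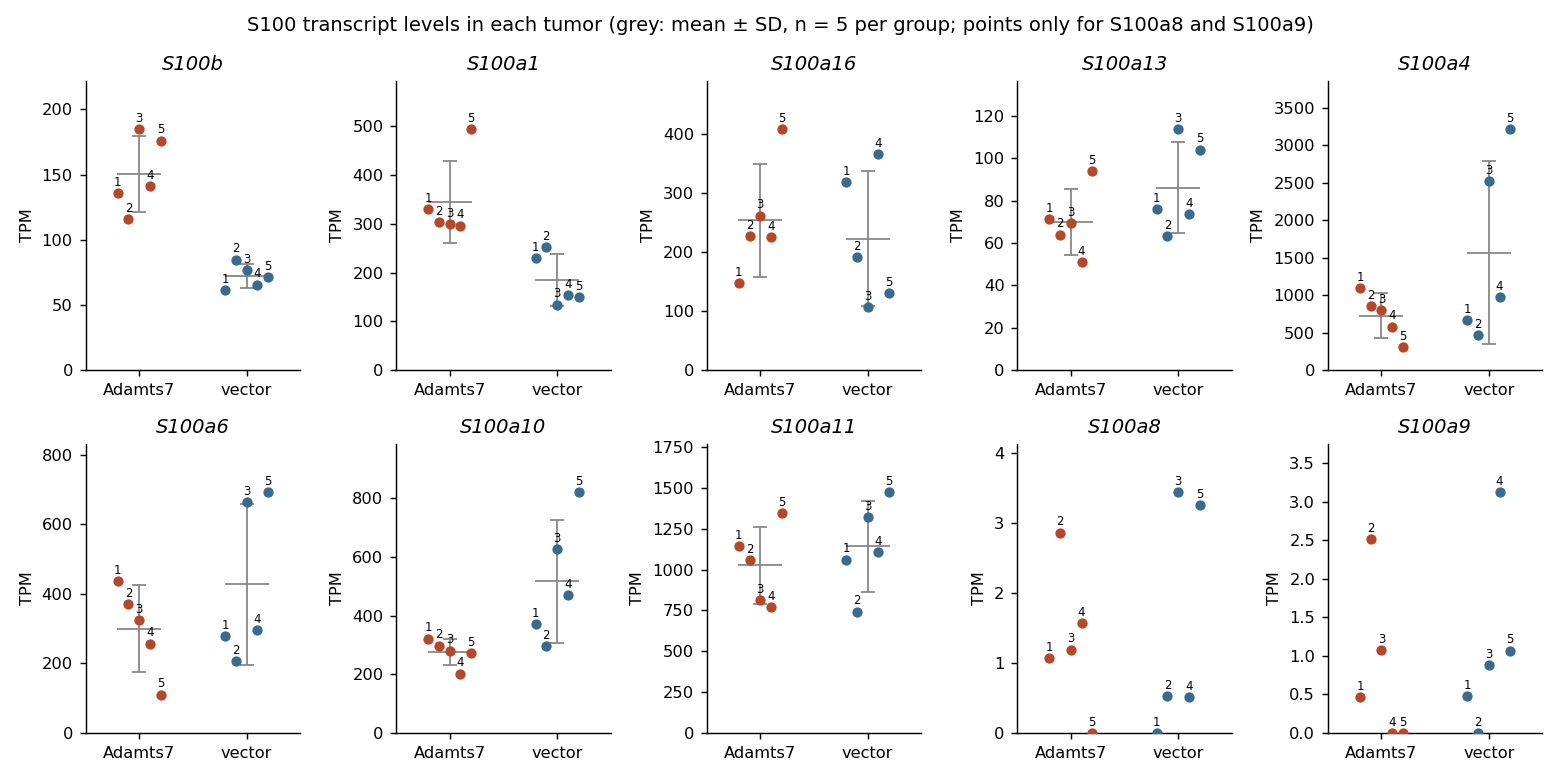
Levels of the 10 S100 genes in TPM (vertical axis, linear, from 0) in each of 5 Adamts7 and 5 vector tumors, numbered as labelled, with the mean and SD in grey except for S100a8 and S100a9. S100b and S100a1 separate the groups, while S100a4, S100a6 and S100a10 are highest in vector tumors 3 and 5.

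With all 10 tumors, 9 members passed the filter of a mean of at least 1 TPM and 1 of them, S100b, was called over all 15276 genes tested (limma, Benjamini-Hochberg adjusted p at 0.05), where 0.223% of all genes were called in either direction, 0.0262% higher and 0.196% lower. The median log2 difference, Adamts7 minus vector, was -0.15 over these 9 members and -0.10 over all genes tested, and 4 of the 9 were positive, against 39.8% of all genes tested. At an unadjusted p under 0.05, the threshold used for the gene lists below, 4.86% of all genes tested were higher and 15.3% lower in Adamts7 tumors. The authors' deposited table, whose calls are also given for those lists, called 2.48% of 18796 genes higher and 5.48% lower. S100b and S100a1 had groups that do not overlap, as had 1.11% of all genes tested with higher and 3.78% with lower values in Adamts7 tumors. Since S100b led to the listing of the family, nothing is read from these shares.

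S100b, the neural crest and melanoma marker of the family, had 136, 116, 185, 141 and 176 TPM in Adamts7 tumors 1 to 5, against 61.5, 84.7, 76.8, 65.6 and 71.3 TPM in vector tumors 1 to 5. The lowest Adamts7 tumor was thus above the highest vector tumor, and the tumor labelled Adamts7 5, low in Adamts7, had the second highest S100b level of all. The ratio of the means was 2.09, and the log2 difference was 1.04 with a standard error of 0.15. It was 0.98 (SE 0.15) without the tumor labelled Adamts7 5, 1.07 (SE 0.18) without vector tumors 3 and 5, and 1.01 (SE 0.17) without all 3. The call over all genes was lost in 6 of the 10 fits that leave out 1 tumor. The log2 difference in those fits was 1.07 without Adamts7 1, 0.96 without Adamts7 3, 1.06 without Adamts7 4, 1.07 without vector 3, 1.01 without vector 4 and 1.04 without vector 5. It was lost also without vector tumors 3 and 5 together.

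S100b did not follow the pigment genes among the vector tumors. Pmel, a structural protein of the melanosome, had 6.13 TPM in vector tumor 3 and 274 TPM in vector tumor 5, against 1107 to 4380 TPM in the other vector tumors, and Sox10, the transcription factor of the neural crest lineage, was at 269 and 311 TPM against 662 to 742 TPM. S100b lay at 76.8 and 71.3 TPM in vector tumors 3 and 5, inside the 61.5 to 84.7 TPM of the other vector tumors. All 12 melanocyte genes tested had positive log2 differences between the groups, with a median of 2.16. Without vector tumors 3 and 5 that median was 0.39 with 7 of 12 positive, and without all 3 tumors it was 0.22 with 10 of 12 positive. With all tumors none was called by limma, 1 had an unadjusted p under 0.05, and 0 were called in the authors' deposited table. Markers of Schwann cells and glia, which also express S100b, had a median log2 difference of -0.40, with 3 of 11 tested genes positive, 0 called by limma, 1 higher and 2 lower at an unadjusted p under 0.05, and 0 called in the authors' deposited table. For these markers the median was -0.17 without vector tumors 3 and 5, where that of all genes tested was -0.10. It was -0.08 without all 3 tumors, as was that of all genes tested. The summed level of the Schwann cell and glia markers was 440.2 to 602 TPM in Adamts7 tumors and 503 to 771 TPM in vector tumors. Adipocytes also express S100b; of 5 adipocyte markers 1, Fabp4, passed the filter, 0 were called by limma, 0 higher and 1 lower had an unadjusted p under 0.05, and 1 was called lower in the authors' deposited table. The summed level of the 5 was 10.6 to 20.7 TPM in Adamts7 tumors and 11.1 to 171 TPM in vector tumors. The part of these cell types in the S100b level was not tested.

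**Figure D2:**
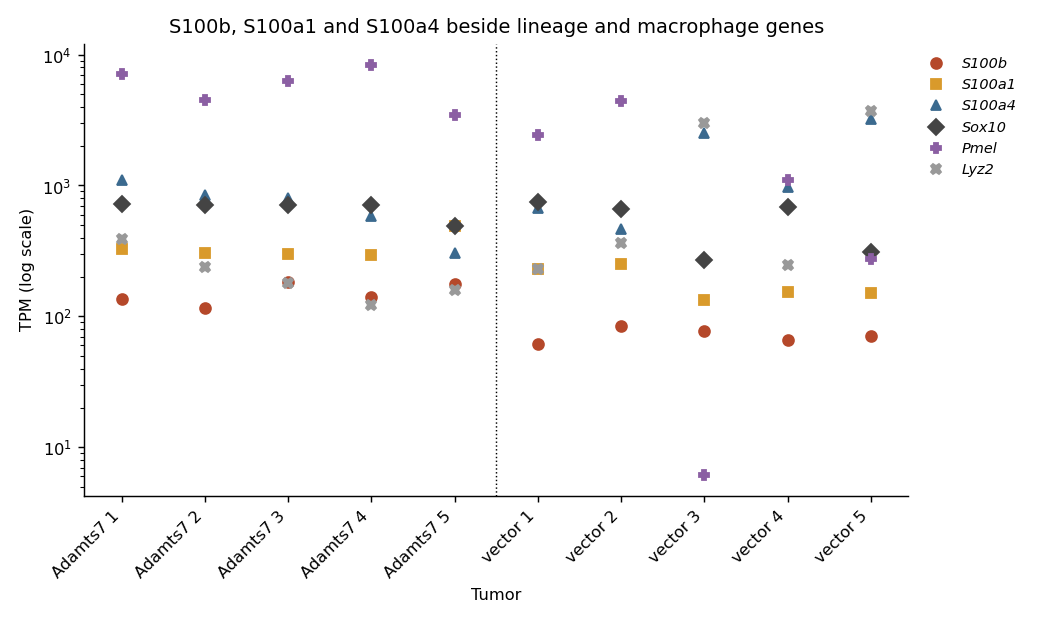
TPM on a log axis of S100b, S100a1 and S100a4 beside the lineage genes Sox10 and Pmel and the macrophage gene Lyz2, in each Adamts7 and vector tumor. S100b stays between 61.5 and 84.7 TPM in the vector tumors, also in vector tumor 3, where Pmel is at 6.13 TPM, while S100a4 and Lyz2 are highest in vector tumors 3 and 5.

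The promoter window of S100b is shown because S100b was the member called. It comes from RefSeq on build GRCm38.p6, runs from 250 bases before to 50 bases after the annotated start, and lies at chr10:76253586-76253885 on the plus strand. The expression values were made on mm39, so these coordinates belong to the sequence alone. Capitals mark CCAAT, found on either strand.
S100b: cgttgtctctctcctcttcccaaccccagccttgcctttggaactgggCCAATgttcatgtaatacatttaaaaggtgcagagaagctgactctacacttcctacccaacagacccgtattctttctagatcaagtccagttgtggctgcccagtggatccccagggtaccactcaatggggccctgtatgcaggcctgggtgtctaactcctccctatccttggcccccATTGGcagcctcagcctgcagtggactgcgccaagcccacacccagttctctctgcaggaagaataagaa
CCAAT occurred once on the plus strand and once on the minus strand of this window, beginning 202 and 20 bases before the start, and 37.4% of 32851 such windows in the mouse table hold it. The other motifs searched on both strands were the TATA box as TATAAA, in 13.6% of all windows, the GC box as GGGCGG, in 35.7%, the E-box as CACGTG, in 7.2%, and the core that SOX proteins bind as ACAAAG, in 18.7%. None of these was in the S100b window.

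S100a1 and S100a13 lie head to head on chromosome 3, yet their transcripts differed in pattern. S100a1, a regulator of calcium release and uptake in heart and skeletal muscle, had 330.0, 304, 299.8, 297 and 494 TPM in Adamts7 tumors 1 to 5, against 230.2, 252, 134, 155 and 150.0 TPM in vector tumors 1 to 5. Every Adamts7 tumor was above every vector tumor, with the tumor labelled Adamts7 5 far above the other 4 of its group. The ratio of the means was 1.87 and the log2 difference was 0.92 (SE 0.21), which was not called over all genes. It was 0.78 (SE 0.19) without the tumor labelled Adamts7 5, 0.70 (SE 0.21) without vector tumors 3 and 5, and 0.56 (SE 0.16) without all 3. S100a13, which takes part in the export of FGF1 and interleukin-1 alpha, had 71.5, 64.0, 69.6, 51.1 and 94.0 TPM in Adamts7 tumors and 76.0, 63.4, 114, 73.9 and 104 TPM in vector tumors. These groups overlap throughout, and the highest levels were in vector tumors 3 and 5, where S100a1 was low. The log2 difference of S100a13 was -0.29 (SE 0.20), and -0.40 (SE 0.19), -0.04 (SE 0.18) and -0.16 (SE 0.13) in the same order of left-out tumors.

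The ratio of S100a1 to S100a13 within a tumor does not depend on the scaling between libraries. It was 4.62, 4.74, 4.31, 5.80 and 5.26 in Adamts7 tumors 1 to 5, and 3.03, 3.98, 1.18, 2.09 and 1.44 in vector tumors 1 to 5. The groups do not overlap, at 4.94 ± 0.590 in Adamts7 tumors and 2.34 ± 1.16 in vector tumors (SD, n = 5 each). The lowest ratios were in vector tumors 3 and 5, and the other vector tumors had 2.09 to 3.98. S100a1 alone separates the groups, so the ratio is not separate support, and no share over all genes was computed for it. Skeletal muscle markers, which could carry S100a1 into a library, summed to 5.07 to 6.77 TPM in Adamts7 tumors and to 382 TPM in vector tumor 4 but at most 11.7 TPM in the other 4 vector tumors, and S100a1 was at 155 TPM in vector tumor 4. The part of muscle in the S100a1 level was not tested. Of 6 muscle markers tested 0 were called by limma, 0 had an unadjusted p under 0.05, and 0 were called in the authors' deposited table. Among the vector tumors S100a1 and this ratio fell in the order of Pmel, at 4380, 2431, 1107, 274 and 6.13 TPM in vector tumors 2, 1, 4, 5 and 3. The tumor labelled Adamts7 5 had the highest S100a1 level but the lowest Pmel level of its group, at 3424 TPM. A link of S100a1 to pigment genes was not tested.

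The windows of this pair are shown because they share sequence. In RefSeq on GRCm38.p6 the window of S100a1 is at chr3:90514281-90514580 on the minus strand and that of S100a13 at chr3:90514185-90514484 on the plus strand. The annotated starts used for them are 105 bases apart, and capitals mark the 204 bases that each window shares with the other, read on opposite strands.
S100a1: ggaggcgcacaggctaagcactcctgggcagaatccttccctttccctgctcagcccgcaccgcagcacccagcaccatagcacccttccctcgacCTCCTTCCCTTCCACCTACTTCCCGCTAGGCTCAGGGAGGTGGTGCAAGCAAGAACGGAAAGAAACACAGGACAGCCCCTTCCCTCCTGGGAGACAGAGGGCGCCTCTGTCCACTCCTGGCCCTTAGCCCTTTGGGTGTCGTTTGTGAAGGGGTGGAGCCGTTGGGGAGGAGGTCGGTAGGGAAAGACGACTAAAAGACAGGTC
S100a13: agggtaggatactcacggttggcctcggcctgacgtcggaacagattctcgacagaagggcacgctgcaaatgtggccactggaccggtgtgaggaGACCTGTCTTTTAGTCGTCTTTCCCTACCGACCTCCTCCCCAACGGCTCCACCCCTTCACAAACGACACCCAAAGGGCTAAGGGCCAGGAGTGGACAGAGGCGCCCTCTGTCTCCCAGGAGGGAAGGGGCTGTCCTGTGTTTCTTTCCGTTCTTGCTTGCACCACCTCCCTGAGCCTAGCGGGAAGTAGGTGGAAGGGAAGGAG
G and C made up 61.0% of the S100a1 window and 59.3% of the S100a13 window, against 53.8% over all windows. None of the 5 motifs was in either. From the starts used here the genes run away from each other, so the capitals mark shared window sequence and not a shared transcript. RefSeq still lists the spans of the pair as overlapping, and which transcripts overlap was not examined. No source used here says whether reads were counted by strand, so reads from any overlap cannot be told apart.

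**Figure D3:**
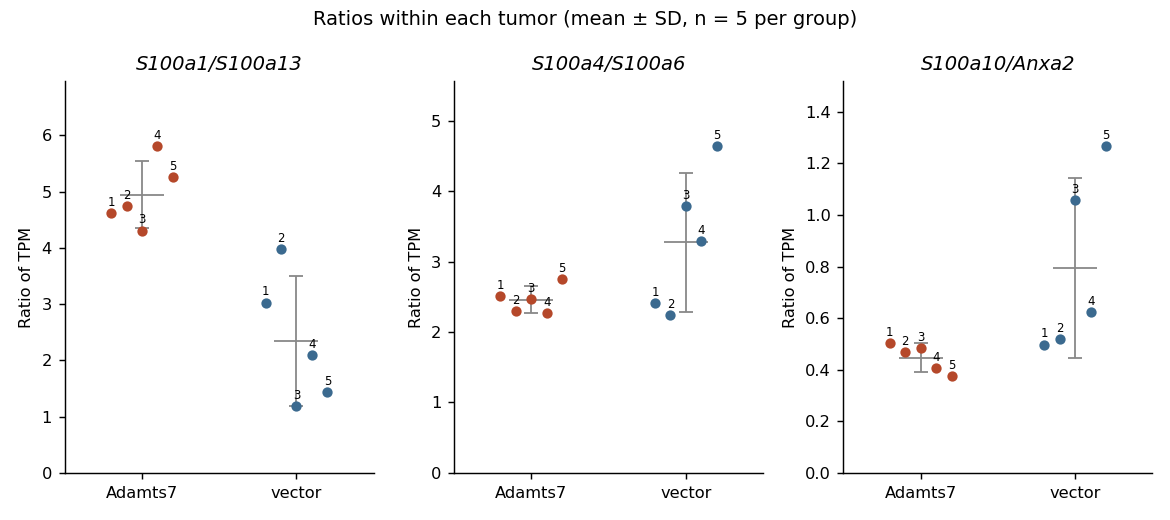
Ratios of TPM within each tumor for S100a1 to S100a13, S100a4 to S100a6 and S100a10 to Anxa2, with Adamts7 tumors left of vector tumors, numbered as labelled, and the mean and SD in grey (n = 5 per group). The first ratio separates the groups, and the other ratios are highest in vector tumors 3 and 5.

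S100a4 and S100a6, neighbours on chromosome 3 with only S100a5 between them, varied together over the 10 tumors and overlapped between the groups. S100a4, which binds nonmuscle myosin, had 1099, 852, 799, 582 and 304 TPM in Adamts7 tumors 1 to 5, against 668, 463, 2516, 973 and 3212 TPM in vector tumors 1 to 5. Vector tumors 3 and 5 were above all others, and the tumor labelled Adamts7 5 was the lowest. S100a6, known as calcyclin, had 437, 371, 323, 257 and 110.4 TPM in Adamts7 tumors and 277, 207, 664, 296 and 693 TPM in vector tumors, with the same tumors at both ends. The log2 difference was -0.84 (SE 0.55) for S100a4 and -0.48 (SE 0.43) for S100a6. Without vector tumors 3 and 5 these were -0.01 (SE 0.40) and 0.08 (SE 0.39), and leaving out the tumor labelled Adamts7 5 as well gave 0.28 (SE 0.27) and 0.41 (SE 0.19), so that the sign of both turned. Without the tumor labelled Adamts7 5 alone they were -0.56 (SE 0.55) and -0.15 (SE 0.37). The ratio of S100a4 to S100a6 stayed between 2.27 and 2.75 in the Adamts7 tumors, and was 2.41, 2.24, 3.79, 3.29 and 4.64 in vector tumors 1 to 5.

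Monocyte and macrophage genes had the same tumors at both ends as S100a4 and S100a6, but did not follow them among the other vector tumors. Of vector tumors 1, 2 and 4, tumor 4 had the lowest sum of the macrophage genes, at 965 TPM. It had the highest S100a4 and S100a6 of these, at 973 and 296 TPM. The summed level of the 12 macrophage genes, all above 1 TPM in at least 1 tumor, ran from 524 to 2163 TPM in Adamts7 tumors and from 965 to 6268 TPM in vector tumors. The tumor labelled Adamts7 5 was lowest and vector tumors 3 and 5 were highest. Lyz2, lysozyme of myeloid cells, reached 3010 TPM in vector tumor 3 and 3677 TPM in vector tumor 5, against 121 to 387 TPM in the other 8 tumors. Of the 12 genes 0 were called by limma, 0 higher and 2 lower had an unadjusted p under 0.05, and 2 were called lower in the authors' deposited table. T cells also express S100a4, and their markers summed to 16.3 to 42.5 TPM in Adamts7 tumors, to 375 and 273 TPM in vector tumors 3 and 5, and to 42.0 to 58.7 TPM in the other vector tumors; 0 of 8 were called by limma, 8 were lower at an unadjusted p under 0.05, where 15.3% of all genes tested were, and 7 were called lower in the authors' deposited table. Fibroblast markers summed to 397 to 1985 TPM in Adamts7 tumors and 506 to 1663 TPM in vector tumors. They too were lowest in the tumor labelled Adamts7 5, at 397 TPM. They reached 1591 and 1663 TPM in vector tumors 3 and 5, against 506 to 967 TPM in the other vector tumors, though 1 Adamts7 tumor was higher. Of 10 tested, 0 were called by limma, at an unadjusted p under 0.05 or in the authors' deposited table. Endothelial markers summed to 43.0 to 95.6 TPM and 49.5 to 112 TPM. The tumor labelled Adamts7 5 was lowest, at 43.0 TPM. Vector tumors 3 and 5 had 112 and 84.1 TPM, against 49.5 to 94.3 TPM in the other vector tumors. Of 6 tested, 0 were called by limma, 2 were lower at an unadjusted p under 0.05 and 0 were called in the authors' deposited table. The part of these cells in the S100a4 and S100a6 levels was not tested.

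The promoter windows of S100a4 and S100a6 are shown as those of the neighbouring members that varied together. They lie at chr3:90603520-90603819 and chr3:90612644-90612943, both on the plus strand of GRCm38.p6 in RefSeq. Capitals mark TATAAA in S100a4 and CACGTG in S100a6.
S100a4: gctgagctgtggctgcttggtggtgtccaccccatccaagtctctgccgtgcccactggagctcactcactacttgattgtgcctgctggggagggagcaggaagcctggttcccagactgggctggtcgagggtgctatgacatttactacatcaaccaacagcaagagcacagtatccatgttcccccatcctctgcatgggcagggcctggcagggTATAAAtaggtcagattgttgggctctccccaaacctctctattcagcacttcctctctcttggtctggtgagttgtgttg
S100a6: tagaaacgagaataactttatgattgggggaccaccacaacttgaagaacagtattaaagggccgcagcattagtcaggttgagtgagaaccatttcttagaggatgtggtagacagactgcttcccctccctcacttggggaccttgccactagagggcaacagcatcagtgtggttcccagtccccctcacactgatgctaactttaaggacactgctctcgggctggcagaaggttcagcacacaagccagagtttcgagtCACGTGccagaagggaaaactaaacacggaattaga
TATAAA began 31 bases before the start of S100a4 and was not in the S100a6 window, and CACGTG began 14 bases after the start of S100a6 and was not in the S100a4 window. In all, 9 of 10 members had a window, S100a16 with more than 1, giving 10 windows. Of these, 3 held the TATA box letters, 3 the GC box letters, 2 the E-box letters, 2 the CCAAT letters and 1 the SOX core letters.

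S100a10 and S100a11, whose proteins pair with annexins, were abundant in every tumor. S100a10, the light chain p11 that binds annexin A2, had 321, 298, 280.2, 202 and 271 TPM in Adamts7 tumors 1 to 5, against 371, 297, 625, 469 and 821 TPM in vector tumors 1 to 5. The groups touch at vector tumor 2, and vector tumors 3 and 5 were highest. The log2 difference was -0.83 (SE 0.26), and -0.83 (SE 0.29) without the tumor labelled Adamts7 5. It was -0.46 (SE 0.18) without vector tumors 3 and 5, which is smaller by over 1.5 times, and -0.46 (SE 0.19) without all 3. S100a11, a partner of annexin A1, had 1143, 1056, 813, 772 and 1345 TPM in Adamts7 tumors and 1061, 743, 1321, 1107 and 1475 TPM in vector tumors, which overlap throughout. Its log2 difference was -0.15 (SE 0.21), and -0.25 (SE 0.21), 0.07 (SE 0.21) and -0.03 (SE 0.19) without the tumor labelled Adamts7 5, without vector tumors 3 and 5, and without all 3. Anxa2, the gene of annexin A2, was at 615 ± 82.9 TPM in Adamts7 tumors and 661 ± 84.1 TPM in vector tumors (SD, n = 5 each). The ratio of S100a10 to Anxa2 was 0.504, 0.467, 0.485, 0.405 and 0.376 in Adamts7 tumors 1 to 5, and 0.498, 0.519, 1.06, 0.624 and 1.27 in vector tumors 1 to 5.

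S100a16, a broadly expressed and little studied member, ran against S100a4 at the extremes. It had 147, 227, 262, 225 and 408 TPM in Adamts7 tumors 1 to 5, against 318, 192, 107, 366 and 131 TPM in vector tumors 1 to 5. The highest value was in the tumor labelled Adamts7 5, where S100a4 and S100a6 were lowest, and the lowest values were in vector tumors 3 and 5, where they were highest. The log2 difference of S100a16 was 0.27 (SE 0.37). It was 0.08 (SE 0.37) without the tumor labelled Adamts7 5, -0.23 (SE 0.31) without vector tumors 3 and 5 and -0.42 (SE 0.25) without all 3, so that its sign turned.

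**Figure D4:**
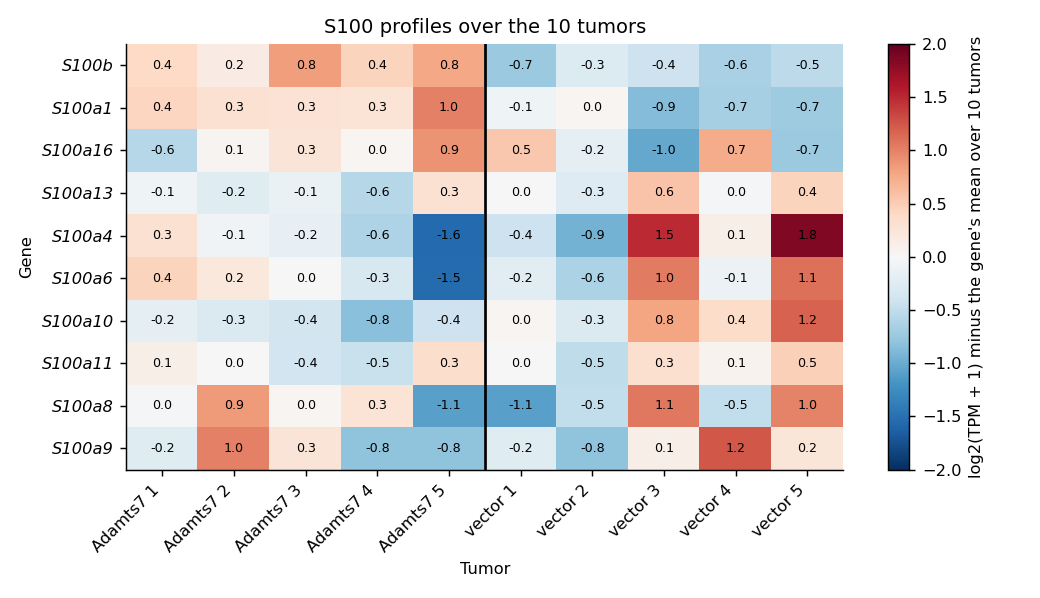
Each gene's log2(TPM + 1) minus its mean over the 10 tumors (colour and printed value), with the 5 Adamts7 tumors left of the line and the 5 vector tumors right of it. S100b and S100a1 are positive in each Adamts7 tumor, and S100a4 and S100a6 are most negative in the tumor labelled Adamts7 5 and most positive in vector tumors 3 and 5.

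S100a8 and S100a9, the calprotectin pair, were near the limit of the table. S100a8 had 1.07, 2.86, 1.19, 1.57 and 0 TPM in Adamts7 tumors 1 to 5, against 0, 0.52, 3.44, 0.51 and 3.25 TPM in vector tumors 1 to 5. S100a9 had 0.47, 2.52, 1.08, 0 and 0 TPM in Adamts7 tumors and 0.48, 0, 0.88, 3.13 and 1.07 TPM in vector tumors. The groups overlap for both, and the pair did not share its highest tumor, which was vector tumor 3 for S100a8 and vector tumor 4 for S100a9. S100a8 just passed the filter, with a mean of 1.44 TPM over the 10 tumors and a log2 difference of 0.01 (SE 0.49), and S100a9 just missed it at 0.963 TPM. Without the tumor labelled Adamts7 5 the difference of S100a8 was 0.29 (SE 0.48), without vector tumors 3 and 5 its mean fell below the filter, and without all 3 it was 0.97 (SE 0.31). In that last fit S100a8 passed the filter only through the Adamts7 tumors. It was at 1.67 ± 0.820 TPM there (SD, n = 4) and at 0.343 ± 0.297 TPM in vector tumors (SD, n = 3), so nothing is read from this difference. Of 11 neutrophil markers analysed here 7 stayed under 1 TPM in every tumor, including Cxcr2, Elane and Mpo. Their summed level was 1.78 to 5.37 TPM in Adamts7 tumors, 33.5 and 39.2 TPM in vector tumors 3 and 5, and 3.51 to 3.91 TPM in the other vector tumors. Of 2 that were tested 0 were called by limma, 0 had an unadjusted p under 0.05 and 2 of the 11 were called lower in the authors' deposited table.

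**Figure D5:**
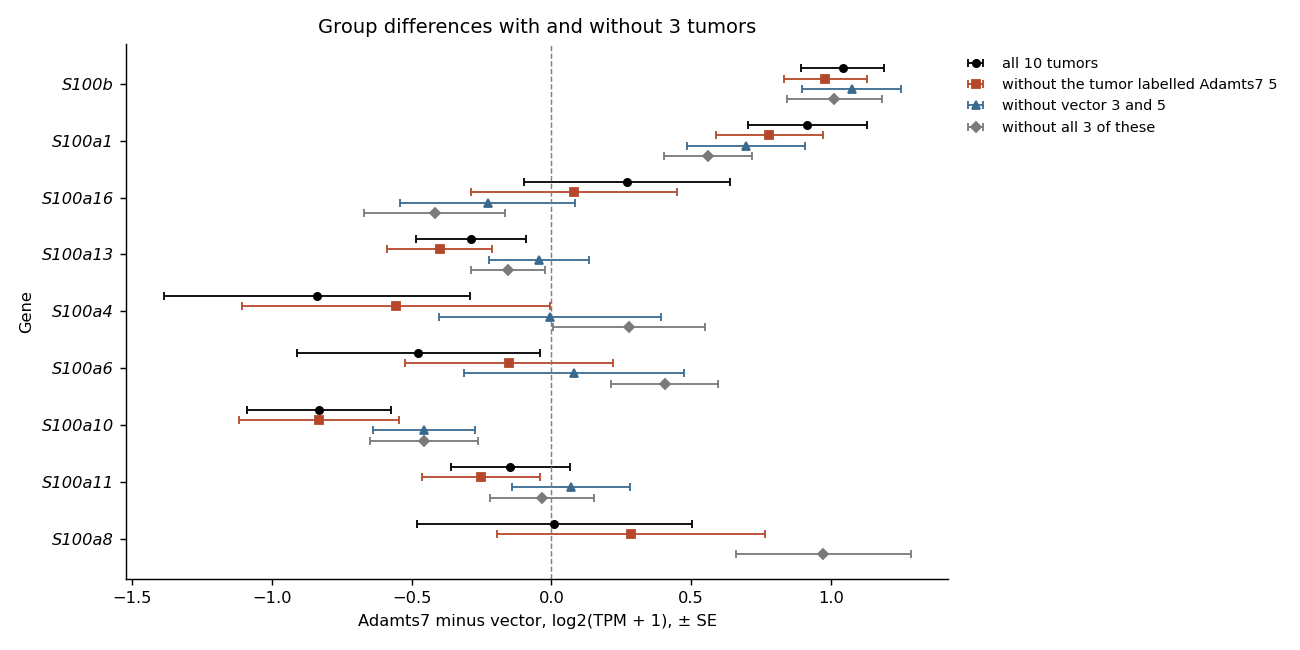
Log2 difference, Adamts7 minus vector, with its standard error from limma for the 9 members tested, with all 10 tumors and without the tumor labelled Adamts7 5, without vector tumors 3 and 5, or without all 3. S100b stays between 0.98 and 1.07 and S100a1 between 0.56 and 0.92, while S100a4, S100a6, S100a11 and S100a16 change sign.

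Other S100 genes were low. S100a3, a gene of the hair follicle, was the sole other S100 gene that passed the filter, with 3.20 ± 2.69 TPM in Adamts7 tumors and 4.88 ± 1.98 TPM in vector tumors (SD, n = 5 each) and a log2 difference of -0.71 (SE 0.46) that was not called (limma adjusted p = 0.387). The highest value in any tumor was 2.18 TPM for S100a7a, 0.84 TPM for S100a5, 0.68 TPM for S100a14 and 0.1 TPM for S100a2. The fused-type genes Flg and Tchh, whose proteins carry an S100 domain in the cornified skin, were at most 0.23 and 0.24 TPM. Keratinocyte markers summed to 0.22 to 0.72 TPM in Adamts7 tumors and 0.44 to 5.16 TPM in vector tumors, with none of the 6 passing the filter and 1 called lower in the authors' deposited table.

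Among genes whose products bind S100 proteins, the receptor list held the single call of limma. The lists were written with earlier results of these data known, so this call is a description and is not used as support. Of 8 receptor and surface genes tested, 0 were called higher and 1 lower, where 0.196% of all genes tested were called lower. The median log2 difference was -0.25, which turned to 0.14 without vector tumors 3 and 5. Cd36, a scavenger receptor that takes up fatty acids and has been described to bind the S100A8 and S100A9 complex, fell in Adamts7 tumors. It had 5.72, 4.21, 4.09, 3.01 and 3.65 TPM in Adamts7 tumors 1 to 5, against 12.8, 9.73, 23.1, 13.4 and 13.2 TPM in vector tumors 1 to 5. Every Adamts7 tumor was below every vector tumor, as for 3.78% of all genes tested, and the log2 difference was -1.55 (SE 0.22, limma adjusted p = 0.0288). The call was lost in 5 of the 10 fits that leave out 1 tumor, with a log2 difference of -1.57 without Adamts7 2, -1.56 without Adamts7 3, -1.47 without Adamts7 4, -1.57 without vector 4 and -1.57 without vector 5. Ager, which encodes the receptor RAGE, was at 2.65 ± 0.588 TPM in Adamts7 tumors and 10.6 ± 8.60 TPM in vector tumors (SD, n = 5 each; limma adjusted p = 0.142), with 23.4 and 15.6 TPM in vector tumors 3 and 5. Bsg, which encodes basigin, a receptor of S100A9, was at 2605 ± 299 TPM and 1430.4 ± 716 TPM (SD, n = 5 each; limma adjusted p = 0.161), and Plat, a plasminogen activator that the S100A10 and annexin A2 complex binds, at 114 ± 17.6 TPM and 83.9 ± 31.0 TPM (SD, n = 5 each; limma adjusted p = 0.284). Vector tumors 3 and 5 were lowest for both, at 641 and 697 TPM for Bsg and 48.0 and 53.0 TPM for Plat. Without them the log2 difference was 0.43 (SE 0.13), against 1.04 (SE 0.35) with all tumors, for Bsg and 0.09 (SE 0.14), against 0.51 (SE 0.25), for Plat. The log2 difference of Ager was -0.64 (SE 0.20) without them and -1.38 (SE 0.43) with all tumors. Tlr4 was at 9.58 ± 1.54 TPM in Adamts7 tumors and 10.2 ± 1.56 TPM in vector tumors (SD, n = 5 each). The authors' deposited table called 0 of the list higher and 2 lower, where it called 2.48% of 18796 genes higher and 5.48% lower.

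Annexins, intracellular partners and other EF-hand genes had no member called by limma. Of 9 annexins tested, 1 was higher and 1 lower at an unadjusted p under 0.05, and 1 was called higher in the authors' deposited table, with a median log2 difference of -0.06. Anxa6 was at 221 ± 18.4 TPM in Adamts7 tumors and 177 ± 7.60 TPM in vector tumors without overlap (SD, n = 5 each; limma adjusted p = 0.133). Higher values in Adamts7 tumors without overlap were found for 1.11% of all genes tested. Anxa1, the partner of S100a11, was at 547 ± 249 TPM and 716 ± 215 TPM (SD, n = 5 each; limma adjusted p = 0.42). Of 17 intracellular partners tested, 2 were higher and 4 lower at an unadjusted p under 0.05, which are shares of 11.8% and 23.5% beside 4.86% and 15.3% of all genes tested. In that list 1 was called higher and 2 lower in the authors' deposited table, and the median was -0.23. Cacybp, whose product binds S100a6, was at 37.1 ± 10.7 TPM in Adamts7 tumors and 71.9 ± 20.4 TPM in vector tumors (SD, n = 5 each; limma adjusted p = 0.0997). Myh9, the myosin heavy chain that S100a4 binds, was at 206 ± 20.1 TPM and 268 ± 41.7 TPM (SD, n = 5 each; limma adjusted p = 0.17). Stk38l, a kinase of the NDR family that S100b activates, was at 11.9 ± 1.32 TPM and 18.2 ± 4.89 TPM (SD, n = 5 each; limma adjusted p = 0.158). Of 22 other EF-hand genes tested, 0 were higher and 5 lower at an unadjusted p under 0.05, and 1 was called lower in the authors' deposited table. The share lower was 22.7%, beside 15.3% of all genes tested. The median was -0.35 with 5 of 22 positive, beside 39.8% of all genes tested. It was -0.10 without vector tumors 3 and 5, where 1 gene fewer was tested and the median of all genes was -0.10 too. Rcn2 and Calu, calcium-binding proteins of the secretory pathway, were at 48.9 ± 3.80 TPM against 75.2 ± 11.4 TPM and at 528 ± 54.2 TPM against 708 ± 60.0 TPM, Adamts7 tumors against vector tumors, and neither overlapped between the groups (SD, n = 5 each; limma adjusted p = 0.0719 and 0.11). Lower values in Adamts7 tumors without overlap were found for 3.78% of all genes tested. Without the tumor labelled Adamts7 5, Cacybp, Rcn2 and Calu passed the threshold beside Cd36, in a fit that called 3.18% of all genes tested lower. Without all 3 tumors, where 1.51% of all genes were called higher and 4.62% lower, Myh9 was called lower with these 4 and Bsg was called higher, at a log2 difference of 0.49 (SE 0.11).

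For the members that varied most, the genes with the nearest profiles were found as those with the smallest root mean square difference between gene-centred log2(TPM + 1) profiles over the 10 tumors. This is a description over tumors that share cell composition and scaling within each library. For S100b they were Cdk19 at 0.28, Ldhb at 0.29 and Zfhx4 at 0.30 log2 units, and for S100a1 they included Ldhb at 0.14 and Phlpp1 at 0.21. Ldhb, a lactate dehydrogenase subunit, had 254, 244, 230.5, 224 and 369 TPM in Adamts7 tumors 1 to 5, against 153, 219, 126, 134 and 130.3 TPM in vector tumors 1 to 5. As with S100a1, the tumor labelled Adamts7 5 was highest and vector tumor 3 lowest. S100a4 was nearest to Cx3cr1, a chemokine receptor of monocytes and macrophages, at 0.19, then Cyp4f18 at 0.21 and Neurl3 at 0.23, and S100a6 to Mcub at 0.19, Slc15a3 at 0.21 and Stard10 at 0.22. S100a10 was nearest to Col16a1 at 0.15, Tnfaip8 at 0.16 and Itga8 at 0.16. S100a16 was nearest to Etv5, an ETS transcription factor, at 0.15, then Bnip3 at 0.21 and Myo1h at 0.22. Etv5 had 125, 155, 169.8, 164 and 317 TPM in Adamts7 tumors 1 to 5, against 221, 155, 85.0, 219.6 and 92.9 TPM in vector tumors 1 to 5. For the low members S100a8 and S100a9 the nearest profiles were farther in log2 units, at 0.34 for Slc49a4, Ltbp4 and Tppp3 and at 0.33 for Sh3bgr, 0.36 for Zfp566 and 0.42 for Snhg11. Such distances grow with a gene's own spread, so they do not rank the members by closeness of match. The SD over the 10 tumors was 0.80 for S100a8, 0.73 for S100a9 and 0.59 for S100b.

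The authors' deposited table, made from the same tumors with DESeq2, called 3 of the 9 members for which it gives an adjusted p, where 7.96% of 18796 genes were called in either direction, 2.48% higher and 5.48% lower. In the authors' deposited table the log2 fold change was 1.19 (SE 0.17) for S100b, 1.03 (SE 0.26) for S100a1 and -0.79 (SE 0.27) for S100a10, the 3 that were called. In the authors' deposited table it was -0.99 (SE 0.52) for S100a4, -0.40 (SE 0.42) for S100a6, -0.03 (SE 0.23) for S100a11, -0.18 (SE 0.23) for S100a13 and 0.32 (SE 0.40) for S100a16. The low genes S100a8 and S100a9 had -0.09 (SE 1.07) and -0.35 (SE 1.26) in the authors' deposited table, with no adjusted p for S100a9. S100a1 and S100a10 are called there and not by limma on TPM, and the tumors are the same in both.

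Harvest day cannot be told apart from the group for the tumors taken at day 35 and day 50. Over all 100 choices of 3 Adamts7 and 3 vector tumors that could be those of day 45, the log2 difference of S100b lay between 0.74 and 1.32, that of S100a1 between 0.53 and 1.32 and that of S100a10 between -1.32 and -0.31. The other 6 tested members took both signs over these choices. Because the groups do not overlap for S100b and S100a1, no choice could turn their sign, so that sign says nothing about harvest day.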

How the data were processed

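RNA of 10 tumors was sequenced after selection by poly(A) tail, per the labels' protocols. The expression table holds log2(TPM + 1) values deposited by the authors, with RSEM and mm39 named in the submitters' processing notes; which aligner, annotation and strand setting were used is not given. The authors' second table, a comparison of the groups, holds per gene a signal (mean normalized count), log2 fold change, standard error and test score, and raw and adjusted p-values deposited with it; the submitters' processing notes name DESeq2. Its direction was read from Adamts7, which is positive. Of 30040 identifiers 28805 matched a symbol. Groups and replicate numbers were taken from titles. Nothing says that the tumors of a group came from separately made cell populations, so p-values measure only the spread between these tumors. Depth is unknown, since TPM keeps none.

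The test was limma 3.58.1 (R 4.3.3) on log2(TPM + 1), whose pseudocount of 1 TPM understates changes of low genes. Genes averaging 1 TPM or more entered, the model held the group alone with a trended variance, and p-values were adjusted over all of them by Benjamini-Hochberg with a threshold of 0.05. The procedure was tested on simulated data, where it called 49.8% of genes changed by a log2 of 1 and 83.4% of those changed by 2. A gene not called may thus still differ. The simulated noise was independent for each gene, unlike in tumors that share cell composition. Tables and figures used Python 3.11.15 with pandas 2.3.3 and matplotlib 3.10.9. Members and lists were chosen with earlier results of these data known. Named genes were all members, called list members, up to 4 per list with the smallest p, and the 3 nearest profiles of members with an SD of at least 0.5 on the log2 scale; Anxa2, Sox10 and Tlr4 were named after their values were seen, as were the fits without vector tumors 3 and 5. Reads shared by similar genes are split by RSEM's estimate, which makes close family members uncertain. Alternatives changed the pseudocount, filter, scaling, variance trend and replicate block, left out each tumor, and took sets of 3 against 3 tumors. Promoter windows came from RefSeq. Some genes that these rules name are not reported here. The deposited table of receptor repertoires was not used here. S100g, S100z, S100a7l2 and Ly6g were not analysed here.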

Additional observations from a re-analysis of the deposited data

Results flagged for a closer look

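S100a1 in the tumor labelled Adamts7 5, at 494 TPM, lay apart from the other Adamts7 tumors, which were between 297 and 330.0 TPM. The gap to its nearest neighbour was 0.791 of the group's range on the log2(TPM + 1) scale, above the limit of 0.71 for groups of 5. About 1 in 20 groups is expected to pass that limit by chance, and 20 groups of values were examined. Its part in the group difference is given by the log2 difference without that tumor, 0.78 against 0.92 with it.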

How the results depend on the processing

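In the 20 alternative fits of each member, S100b kept a log2 difference between 0.96 and 1.16 and S100a1 between 0.56 and 1.04, and S100b was called in 11 of the 20. Over the sets of 3 against 3 tumors the differences ran from 0.74 to 1.32 for S100b, 0.53 to 1.32 for S100a1, -1.93 to 0.44 for S100a4, -1.29 to 0.54 for S100a6, -0.89 to 1.08 for S100a8, -1.32 to -0.31 for S100a10, -0.57 to 0.30 for S100a11, -0.65 to 0.13 for S100a13 and -0.52 to 1.05 for S100a16. Without vector tumors 3 and 5 and the tumor labelled Adamts7 5, S100a4, S100a6, S100a8 and S100a16 were at 0.28, 0.41, 0.97 and -0.42. S100a8 passed the filter in that fit only through the Adamts7 tumors, so nothing is read from its value. The number of genes called higher, 4 as reported, was 1 without a filter, 2 with a filter at 5 TPM, 8 under median-of-ratios scaling, 10 under quantile normalization and 8 without a variance trend. The number called lower, 30, was 9 without a filter, 21 under median-of-ratios scaling and 20 under quantile normalization. Leaving out 1 tumor gave 0 to 170 genes called higher and 5 to 487 called lower, the highest counts being without the tumor labelled Adamts7 5; the cause was not tested. Without it and vector tumors 3 and 5 the counts were 225 and 689. S100 members called higher numbered 0 to 1 on leaving out 1 tumor, 0 without a filter, where more genes are tested, and 0 without vector tumors 3 and 5. Partner genes called lower numbered 0 to 4 on leaving out 1 tumor and 0 without a filter, and 5 lower and 1 higher were called without those 3 tumors. With the replicate block 0 genes, 0 members and 0 partner genes were called, though the log2 difference of S100b stayed at 1.04. Same-numbered tumors deviated from their group means with correlations between -0.28 and 0.26. No label says whether the numbers pair the tumors, and so few correlations cannot settle it. Scaling moved the median of all genes from -0.10 to 0.01 under median-of-ratios scaling and 0.04 under quantile normalization, and no tested member changed sign under either. TPM keeps no depth, so what depth limits, such as the levels of S100a8 and S100a9, could not be examined.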
